A study of Mus musculus with 5 samples.

Results

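Poly IC (polyinosinic polycytidylic acid) is a synthetic double-stranded RNA that immune cells respond to as they do to viral RNA. The comparison described here set peritoneal macrophages of mice given poly IC against those of untreated (naive) mice. Its members were 3 of the 5 Affymetrix MG-U74Av2 arrays of the series, chosen by their titles: 1 naive array and 1 array for each of 2 pools of poly IC mice. Both pools came from 12-week-old females of the F1 cross C57Bl/6 x C3H. The dose was 0.1 mg per mouse for pool 2 and was not stated for pool 1. The label of the naive array gives no strain, sex, age or pooling, and the number of mice per pool, the route and the time to cell harvest are not stated either. The other 2 arrays, from pools of 12-week-old female mice of the same cross given 0.1 mg poly IC and ethanol at 6 g per kg, entered no difference below and served only to estimate the spread between pools. All 12422 probe sets that are not array controls were tested, and they gave values for 8251 genes.

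Mammalian cells meet double-stranded RNA with the endosomal receptor TLR3 and the cytosolic helicases MDA5 and RIG-I. Adaptors downstream of these sensors activate the kinases TBK1 and IKK epsilon, which switch on interferon regulatory factors, and the IKK complex, which frees NF-kB. Secreted type I interferon then acts back on the macrophage through JAK kinases and STAT factors and induces the antiviral genes, while feedback inhibitors limit each of these arms.

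Values are given as signals in the order naive, poly IC pool 1, poly IC pool 2, on the linear scale that the submitters set to a common array mean. A difference is the mean of the poly IC pools minus naive in log2(signal + 250), with its standard error (SE). Adding 250 understates the fold of dim genes. P-values come from limma and were adjusted by Benjamini-Hochberg over all 12422 probe sets, and "rose", "fell" and "called" mean an adjusted p under 0.05. The naive group was 1 array, so the spread among naive animals was not measured, and p-values rest on the spread between pools of treated mice. In whole-sample RNA, fewer cells of a type and less RNA per cell cannot be told apart.

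The arrays were alike in median signal (768.6 to 836.2) and in the 3'/5' ratio of actin (1.04 to 1.15), and they differed in the 18S rRNA probe set, which read 7277, 5113 and 66548. All 16 macrophage markers on the array were above the brightest unspiked control probe set in all 3 samples; 3 of them rose and 1 fell (median 0.02). The rises were Fcgr1 (3.06), the lipopolysaccharide coreceptor gene Cd14 at 47180, 126412 and 147435 (1.53 ± 0.16, adjusted p = 0.00143), and the scavenger receptor gene Msr1 at 16203, 30056 and 36169 (1.01 ± 0.17, adjusted p = 0.0105; 0.0792 without the intensity trend of the fit). The fall was Gata6 (-2.23). Adgre1 (F4/80) read 24872, 30800 and 28945, and Cd68 read 26681, 26646 and 27474. Neither was called (0.26 ± 0.22 and 0.02 ± 0.13, adjusted p = 0.532 and 0.954). The female transcript Xist read 7699, 3907 and 8236, and the Y-linked Kdm5d, Uty and Eif2s3y were below the brightest control in all 3 samples. Markers of other cells moved with poly IC. The summed signal of 15 B cell markers was 418559 in naive and 207314 and 191491 in the pools, and that of 13 neutrophil markers was 23815 in naive and 136638 and 100277 in the pools. Of the 15 B cell markers 9 fell and 0 rose. Cd79b, at 62100, 5064 and 3808 (-3.75 ± 0.19, adjusted p = 6.05e-05), was the largest fall of the comparison. Fcer2a (-2.97) and Spib (-2.90) were also among the 15 largest falls. These markers are recalled beside only some of the genes below. The part of other cells in any rise or fall was not tested.

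Of the 8251 genes, 1347 were called (16.3%), 525 of them higher (6.36%) and 822 lower (9.96%). At an unadjusted limma p under 0.05 there were 2493 of the 8251 genes, in either direction. List counts at an unadjusted p are to be read beside that number. Over the 12422 probe sets, 666 were called higher (5.36%) and 1016 lower (8.18%). Rises were fewer but larger. By at least 2-fold, 393 genes rose and 573 fell; by at least 4-fold, 172 rose and 84 fell; by at least 8-fold, 83 rose and 7 fell; and by at least 16-fold, 41 rose and none fell. The difference to naive had a standard deviation of 0.869 over genes, against 0.411 for the difference between the pools. A set of 56 called genes lay below the brightest control in naive and above it in both pools, and 64 went the opposite way. Few dim genes were called: over quintiles of mean signal from dimmest to brightest, the rises numbered 0, 7, 40, 132 and 346 and the falls 14, 45, 120, 332 and 311. Counts fell when a pool was left out, since a single array then stood for poly IC. Without pool 1, 4.33% of genes were called higher and 5.04% lower, and without pool 2 4.1% were called in each direction. All 666 higher and 1016 lower calls over probe sets had naive outside both pools, so leaving out 1 pool could not reverse their sign.

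**Figure D1:**
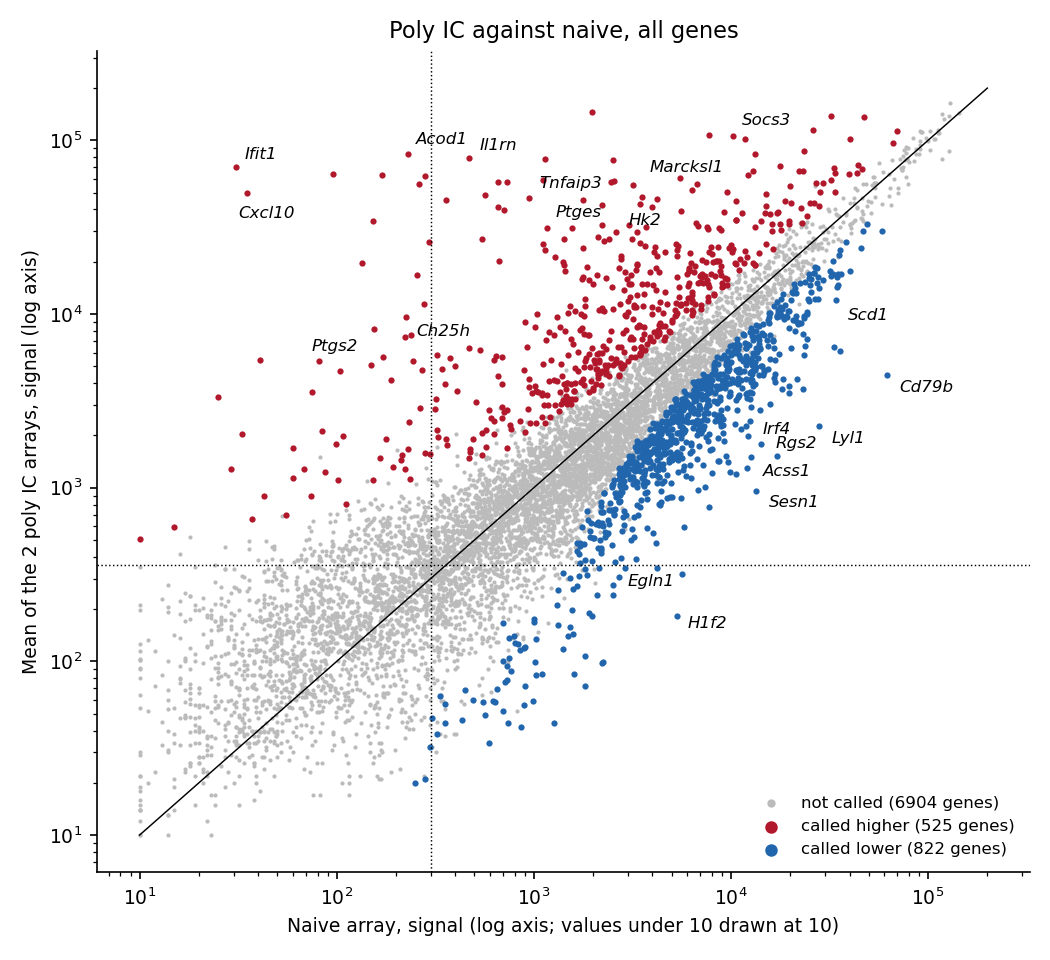
Signal on the naive array (x axis) against the mean signal of the 2 poly IC arrays (y axis), both on log axes, with 1 point for each of 8251 genes; red points are called higher, blue points lower, the solid line marks equal signals and the dotted lines the brightest unspiked control. The 525 genes called higher reach much farther from the line of equal signals than the 822 called lower.

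Promoter sequence of the most strongly changed genes is shown for the 3 highest-rising genes and the highest-falling gene that have an entry in the RefSeq promoter table, because interferon-stimulated genes are switched on through a short response element near their start. Each run is the 250 bases upstream of the start site, 5′ to 3′ on the gene's strand, and capitals mark matches on either strand to a core of the interferon-stimulated response element, GAAANNGAA, or of the NF-kB site, GGANTTTCC.
Ifit1, GRCm38.p6 chr19:34640639-34640888, plus strand: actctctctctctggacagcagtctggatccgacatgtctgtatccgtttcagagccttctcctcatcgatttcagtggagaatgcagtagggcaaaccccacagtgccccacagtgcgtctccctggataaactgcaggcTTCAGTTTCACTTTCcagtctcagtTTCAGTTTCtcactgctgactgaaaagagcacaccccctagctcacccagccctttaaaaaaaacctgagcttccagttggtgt
Cxcl10, GRCm38.p6 chr5:92348890-92349139, minus strand: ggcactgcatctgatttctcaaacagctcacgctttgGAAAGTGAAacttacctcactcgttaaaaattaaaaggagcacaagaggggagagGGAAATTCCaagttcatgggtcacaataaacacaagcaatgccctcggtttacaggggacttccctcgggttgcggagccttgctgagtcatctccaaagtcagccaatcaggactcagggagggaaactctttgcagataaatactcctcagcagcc
Acod1, GRCm38.p6 chr14:103046762-103047011, plus strand: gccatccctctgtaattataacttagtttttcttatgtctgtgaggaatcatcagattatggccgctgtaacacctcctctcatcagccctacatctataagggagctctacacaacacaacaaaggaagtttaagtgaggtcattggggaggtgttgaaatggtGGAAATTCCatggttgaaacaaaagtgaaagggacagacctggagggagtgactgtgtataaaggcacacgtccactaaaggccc
H1f2, GRCm38.p6 chr13:23738557-23738806, plus strand: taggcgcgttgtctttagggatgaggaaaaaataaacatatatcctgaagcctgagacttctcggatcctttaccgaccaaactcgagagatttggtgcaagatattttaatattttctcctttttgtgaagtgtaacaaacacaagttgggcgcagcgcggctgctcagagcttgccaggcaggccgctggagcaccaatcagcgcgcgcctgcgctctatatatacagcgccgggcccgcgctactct

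Ifit1, an interferon-induced protein that binds viral RNA lacking a self cap, read 31, 66557 and 73995, at least 232-fold higher (7.97 ± 0.14, adjusted p = 1.97e-06). Its window held 3 matches to the response element, at -109 to -101, -103 to -95 and -84 to -76 from the start site, and the first and second of these overlap. The chemokine gene Cxcl10 read 35, 54197 and 45159, at least 164-fold higher (7.45 ± 0.26, adjusted p = 1.39e-05), and held 1 response element at -213 to -205 and 1 NF-kB motif at -158 to -150. Acod1, which makes the antimicrobial metabolite itaconate from a citrate cycle intermediate, read 230, 76912 and 88975, at least 274-fold higher (7.43 ± 0.15, adjusted p = 1.97e-06), and held an NF-kB motif alone, at -85 to -77. The linker histone gene H1f2 read 5309, 167 and 198, at least 14.7-fold lower (-3.68 ± 0.60, adjusted p = 0.00928), and held none of these motifs. Over all 27025 promoters of the table, 7.16% held the response element core in the same window, and so did 6.42% of the 6576 that belong to genes on the array. The share was 29% (9 of 31) among genes that rose by at least 16-fold, namely Ccl3, Cxcl10, Cxcl9, Ifih1, Ifit1, Ifit3, Isg15, Rsad2 and Socs1. It was 17.1% (25 of 146) among those that rose by at least 4-fold and 4.23% (3 of 71) among those that fell by at least 4-fold. The longer form with 1 more A at its end was held by 2.87% on the array, 6 of 31, 15 of 146 and 0 of 71. The NF-kB core was held by 1.05% of all promoters and 1.32% of those on the array, by 14 of 146 and by 2 of 71. Among genes that rose by at least 16-fold it stood before Acod1, Cxcl10, Il6, Isg15, Tnfaip2 and Tnfaip3. With 1 more G at its start it was held by 0.395% on the array, 5 of 146 and 1 of 71, and by 1 of 31 among genes that rose by at least 16-fold, so the count of 6 there rests on the shorter core. A STAT motif, TTCNNNGAA, was found in 7.18% of all promoters, 6.16% of those on the array, 16 of 146 and 4 of 71. Matches of the STAT motif can share bases with those of the response element, and the shares are descriptions of these windows only. Sites that depart from the cores were neither counted nor marked.

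Most of the measured genes that sense double-stranded RNA or relay its signal rose. The list named 19 genes of sensing and its signal relay, of which 9 were on the array. Of these 9, 7 rose and none fell (1 was lower at an unadjusted p under 0.05). Their median difference was 2.33, against -0.055 over all genes. Ifih1, which encodes the sensor MDA5, read 1767, 44582 and 45800 (4.49 ± 0.14, adjusted p = 8.96e-06). Eif2ak2 (PKR), a kinase that halts translation on binding double-stranded RNA, read 642, 5621 and 5795 (2.74 ± 0.18, adjusted p = 0.000215). Ikbke, which encodes IKK epsilon, read 2494, 13927 and 14758 (2.41 ± 0.14, adjusted p = 0.0001). In all 3 genes both pools lay several-fold above naive and close to each other. Adar, the editing enzyme that marks cellular double-stranded RNA as self, rose by 2.33 ± 0.16 (adjusted p = 0.000209) and the adaptor gene Myd88 by 2.00 ± 0.22 (adjusted p = 0.00188). Tbk1, the partner kinase of IKK epsilon, read 5519, 11105 and 11552, and its rise of 1.00 ± 0.14 (adjusted p = 0.00482) was not called without the intensity trend of the fit (adjusted p = 0.0583). Irf3, the factor these kinases phosphorylate, was not called (-0.69 ± 0.27, adjusted p = 0.157).

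Interferon regulatory factors diverged. Of 7 on the array, 3 rose and 1 fell, with a median of 0.58. Irf7, the amplifier of type I interferon production, read 1413, 15776 and 23989 (3.57 ± 0.24, adjusted p = 0.000224). Irf1 read 7660, 30905 and 31046 (1.98 ± 0.12, adjusted p = 0.000147), and Irf9, a DNA-binding factor of the interferon response, read 6122, 15824 and 19604 (1.49 ± 0.18, adjusted p = 0.00269). The opposite was seen for Irf4, a factor of lymphocytes and of some macrophage programmes, at 12524, 2455 and 2387 (-2.26 ± 0.17, adjusted p = 0.00036). Irf4 fell alongside the B cell markers given above. The myeloid factor Irf8 was not called (0.58 ± 0.18, adjusted p = 0.0837).

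Among 25 genes of JAK, STAT and SOCS signalling, 8 rose and 3 fell (median 0.20), and the largest changes were in the inhibitors. Socs1, which blocks JAK kinases, read 1565, 29023 and 33188 (4.11 ± 0.14, adjusted p = 1.39e-05). Socs3, which restrains signalling by the IL-6 family, was already at 10282 in naive and reached 105563 and 106913 (3.34 ± 0.13, adjusted p = 2.23e-05). Jak2 read 3040, 14386 and 15550 (2.21 ± 0.17, adjusted p = 0.000409). Stat3 and Stat5a rose less, by 1.21 ± 0.15 and 1.10 ± 0.13 (adjusted p = 0.0034 and 0.00271). Ifnar2, a chain of the type I interferon receptor, rose by 1.65 ± 0.23 (adjusted p = 0.00533), while the other chain, Ifnar1, was not called (0.47 ± 0.20, adjusted p = 0.203). A different inhibitor moved down: Ptpn6 (SHP-1), a phosphatase that dampens many receptors of blood cells, read 12041, 3507 and 3101 (-1.79 ± 0.19, adjusted p = 0.00168). The falls numbered 1 without either pool.

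The NF-kB list had 10 rises and no fall, also at an unadjusted p under 0.05, among 13 genes (median 1.94). Its inhibitors led. Tnfaip3 (A20), an enzyme that edits ubiquitin and shuts down NF-kB signalling, read 943, 45452 and 47450 (5.29 ± 0.14, adjusted p = 5.46e-06). Nfkbia, the inhibitor I-kappa-B alpha, read 13293, 85343 and 81479 (2.63 ± 0.13, adjusted p = 5.52e-05). Nfkbiz, an atypical I-kappa-B that acts in the nucleus, read 2774, 21453 and 21600 (2.85 ± 0.14, adjusted p = 5.08e-05), and the related Bcl3 read 1810, 11552 and 10670 (2.46 ± 0.14, adjusted p = 0.000107). Each of these genes had pools within a narrow range, far above naive. The subunit gene Nfkb2 and the A20 partner Tnip1 rose by 2.08 ± 0.14 and 2.11 ± 0.13 (adjusted p = 0.000226 and 0.000126). Rel was dim and not called (197, 434 and 615, adjusted p = 0.269).

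AP-1 and immediate-early genes did not move together. Of 20, 4 rose and 3 fell (median 0.06). Atf3, a stress-induced repressor of inflammatory genes, read 6835, 30243 and 34302 (2.20 ± 0.13, adjusted p = 0.000146), and Mafk, a small Maf protein that pairs with NRF2, read 1710, 8079 and 8079 (2.09 ± 0.15, adjusted p = 0.000321). The classic immediate-early gene Fos read 36388, 16970 and 16856 (-1.09 ± 0.15, adjusted p = 0.00459), a fall not called without the intensity trend (adjusted p = 0.0582); another Fos probe set gave 0.42. Junb and Egr1 were not called (0.32 ± 0.15 and -0.40 ± 0.23, adjusted p = 0.237 and 0.351), though another Junb probe set was called higher (0.80, adjusted p = 0.0336).

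MAP kinase genes included kinases and phosphatases that rose and others that fell. Of 19 genes, 10 rose and 3 fell (median 0.61). Dusp16, a phosphatase that acts on JNK, read 532, 6420 and 5938 (3.04 ± 0.22, adjusted p = 0.000258). Dusp6, a phosphatase specific for ERK, went down, at 15734, 3583 and 2480 (-2.30 ± 0.24, adjusted p = 0.00157). The other probe sets of these genes gave 0.50 for Dusp16 and 0.29 for Dusp6, with adjusted p = 0.506 and 0.555. Gadd45b, a stress protein that binds kinases of the p38 and JNK pathways, was below the brightest control in naive at 239 and reached 6403 and 8669, at least 24.7-fold higher (3.98 ± 0.23, adjusted p = 0.000107). Its relative Gadd45g read 1611, 11110 and 9672 (2.51 ± 0.15, adjusted p = 0.000115). Map3k8 (TPL2), an upstream kinase of ERK, read 3456, 26695 and 24575 (2.80 ± 0.17, adjusted p = 0.000145), and another of its probe sets gave -0.25. The p38 alpha gene Mapk14 fell, at 18409, 4665 and 3827 (-2.06 ± 0.17, adjusted p = 0.000541), while Mapkapk2, a kinase that p38 activates, rose by 1.70 ± 0.12 (adjusted p = 0.000283). Map3k1, an upstream kinase of JNK, read 12652, 4438 and 4024 (-1.53 ± 0.19, adjusted p = 0.00347).

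**Figure D2:**
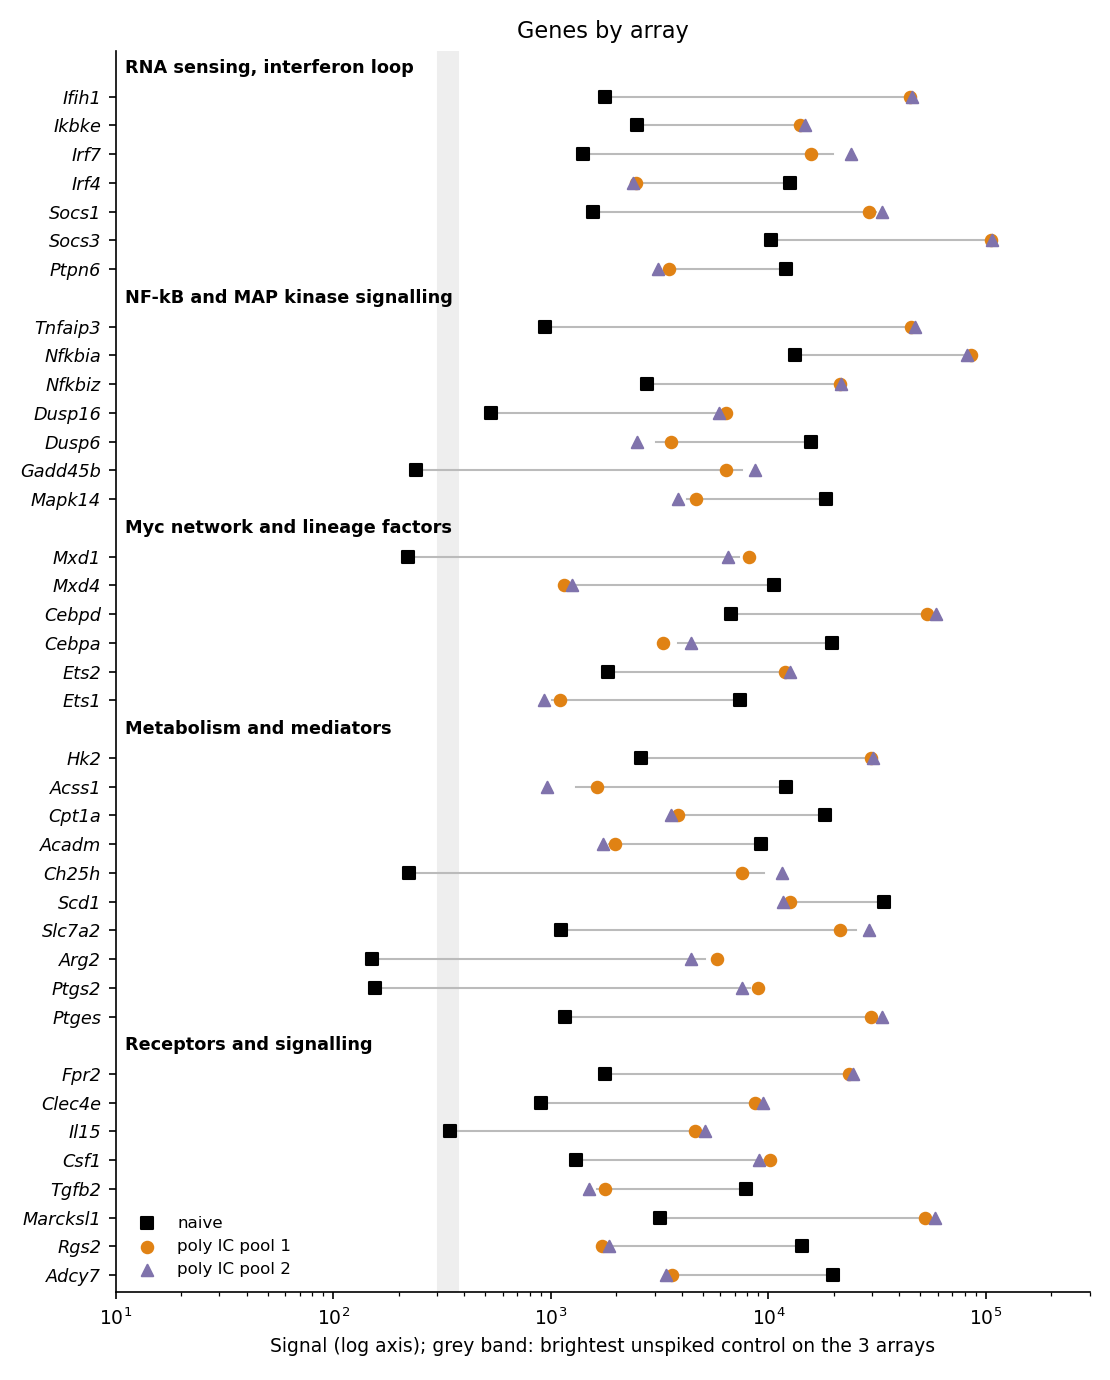
Signals of 38 named genes (rows, grouped by role) on a log axis: black squares are the naive array, orange circles poly IC pool 1 and violet triangles poly IC pool 2, and the grey band spans the brightest unspiked control of the 3 arrays (301.9 to 375.7). In every row shown both pools lie on the same side of naive.

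Transcription factors of myeloid cells split in both directions, with 10 rises and 13 falls among 38 (median 0.02); the numbers were 9 and 8 without pool 1 and 7 and 9 without pool 2. Members of a family changed in opposite directions. Cebpd, an inflammatory C/EBP factor, read 6758, 53340 and 58883 (3.01 ± 0.13, adjusted p = 2.8e-05), and Cebpa, the C/EBP factor of myeloid differentiation, read 19680, 3296 and 4406 (-2.29 ± 0.22, adjusted p = 0.000989). Another member, Cebpb, was called higher at 44100, 64624 and 80230 (0.70 ± 0.17, adjusted p = 0.0423), and lost the call under 8 of 11 alternatives, among them without pool 2 (0.55, adjusted p = 0.151) and with quantile normalization (0.40, adjusted p = 0.126). Likewise Ets2 read 1825, 11889 and 12623 (2.59 ± 0.20, adjusted p = 0.000384) and Ets1 read 7368, 1101 and 927 (-2.59 ± 0.21, adjusted p = 0.000537). Opposite changes were also seen among the antagonists of Myc. Mxd1, which competes with Myc for its partner Max, was below the brightest control in naive at 221 and reached 8139 and 6533, at least 24.2-fold higher (4.0 ± 0.23, adjusted p = 0.000103). Its relative Mxd4 read 10653, 1147 and 1249 (-2.91 ± 0.22, adjusted p = 0.000367). Myc read 5584, 11857 and 10702 (0.98 ± 0.15, adjusted p = 0.00756) and Max 6813, 14013 and 16072 (1.11 ± 0.15, adjusted p = 0.00438), and both rises were lost without the intensity trend (adjusted p = 0.0676 and 0.0526). Nfe2l2 (NRF2), the factor of antioxidant genes, read 4311, 17372 and 17640 (1.96 ± 0.13, adjusted p = 0.000228). Gata6, the factor that sets the identity of resident peritoneal macrophages, read 7218, 1169 and 1531 (-2.23 ± 0.24, adjusted p = 0.00181), with -0.54 and 0.06 in its other probe sets. Spi1 (PU.1) was not called (0.46 ± 0.13, adjusted p = 0.0721), and Mef2c fell by 1.88 ± 0.28 on the log2 scale (adjusted p = 0.00697). Ets1, Mef2c and Irf4 are also expressed by lymphocytes, and the B cell and T cell marker sums were lower in the poly IC pools. T cell markers summed to 30654 in naive and to 18459 and 14044 in the pools, and most of that loss lay in Cd2, which read 21779, 10284 and 7161 (-1.32 ± 0.21, adjusted p = 0.00875). Of 14 T cell markers 4 fell and none rose, 7 lay above naive in both pools and 7 below, and the median was -0.03 (0 were higher at an unadjusted p under 0.05).

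Regulators of cell death that rose included both promoters and blockers of apoptosis. Of 28, 10 rose and 1 fell (median 0.38). Daxx, an adaptor and histone chaperone linked to death receptors, read 2223, 29306 and 35938 (3.73 ± 0.16, adjusted p = 2.75e-05). Casp4, the caspase-11 gene, whose product senses cytosolic lipopolysaccharide, read 2081, 16373 and 17112 (2.87 ± 0.13, adjusted p = 3.55e-05). The death receptor Fas read 689, 5738 and 5580 (2.65 ± 0.21, adjusted p = 0.000466), and Cflar (c-FLIP), which blocks caspase-8 at death receptors, read 1742, 8283 and 11740 (2.34 ± 0.25, adjusted p = 0.00165). The inhibitor of apoptosis genes Birc2 and Birc3 rose by 1.18 ± 0.16 and 1.26 ± 0.14 (adjusted p = 0.00482 and 0.00208), and Apaf1, the scaffold of the apoptosome, rose by 1.27 ± 0.17 (adjusted p = 0.00433). Mcl1, a short-lived survival protein of the Bcl2 family, read 27974, 13409 and 14809 (-0.98 ± 0.13, adjusted p = 0.00454; 0.0619 without the intensity trend). Of 13 p53 targets 2 rose and 2 fell (median -0.03). Sesn1 (sestrin 1), which restrains growth signalling under stress, was among the 15 largest falls of the comparison at 13403, 924 and 997 (-3.50 ± 0.19, adjusted p = 9.66e-05), and Ei24 read 6928, 3072 and 2943 (-1.14 ± 0.18, adjusted p = 0.00818; 0.0523 without the intensity trend). Of the rises, Plk2, a stress-induced kinase, read 2983, 13964 and 17759 (2.31 ± 0.25, adjusted p = 0.00171), and the cell cycle inhibitor Cdkn1a (p21) read 1461, 3741 and 3706 (1.22 ± 0.19, adjusted p = 0.0079). The Cdkn1a call was lost without pool 1 (adjusted p = 0.0541) and without pool 2 (adjusted p = 0.0562).

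Among energy metabolism genes few of glycolysis were called, while those of mitochondrial fuel use mostly lay below naive. Of 19 glycolysis genes 2 rose and 2 fell (median -0.10). These counts were near the shares over all genes, 6.36% called higher and 9.96% lower. Hk2, the inducible hexokinase that commits glucose to the pathway, read 2610, 29478 and 30234 (3.40 ± 0.14, adjusted p = 2.8e-05), though its other probe set gave 0.20 (adjusted p = 0.827). Pfkfb3, which makes the activator of phosphofructokinase, read 1194, 3845 and 4390 (1.59 ± 0.20, adjusted p = 0.00326). Tpi1, an enzyme of the pathway's middle, read 12895, 5820 and 6106 (-1.08 ± 0.14, adjusted p = 0.00368), and Ldha was not called (0.38 ± 0.13, adjusted p = 0.114). Among 36 genes of the citrate cycle and fatty acid oxidation none rose and 7 fell (median -0.53); at an unadjusted p under 0.05, 0 were higher and 19 lower. Cpt1a, the gate for fatty acids into mitochondria, read 18224, 3859 and 3573 (-2.22 ± 0.14, adjusted p = 0.000185). Acadm, a dehydrogenase of fatty acid oxidation, read 9218, 1972 and 1736 (-2.17 ± 0.25, adjusted p = 0.0022). Idh1, the cytosolic isocitrate dehydrogenase, read 11965, 2845 and 1713 (-2.31 ± 0.32, adjusted p = 0.00475), and Pdha1, a subunit of pyruvate dehydrogenase, fell by 1.30 ± 0.16 on the log2 scale (adjusted p = 0.00299). Acss1, a mitochondrial enzyme that activates acetate and one of the 15 largest falls of the comparison, read 12006, 1636 and 963 (-3.02 ± 0.30, adjusted p = 0.00123). The respiratory chain showed little: of 54 subunits 1 rose and 9 fell (median -0.18), and the falls numbered 1 without pool 1, none without pool 2 and none with median-centred arrays.

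Lipid genes that rose belonged to oxysterol, cholesterol export and prostaglandin routes. Ch25h, whose product 25-hydroxycholesterol blocks entry of enveloped viruses and sterol synthesis, was below the brightest control in naive at 224 and reached 7542 and 11600, at least 31-fold higher (4.34 ± 0.29, adjusted p = 0.000215). The cholesterol exporter Abca1 read 8452, 18956 and 21268 (1.22 ± 0.14, adjusted p = 0.00239). Scd1, a desaturase that makes monounsaturated fatty acids, read 33963, 12577 and 11628 (-1.47 ± 0.13, adjusted p = 0.000622), and its relative Scd2 read 4433, 913 and 746 (-2.12 ± 0.27, adjusted p = 0.00364). Over the 31 genes of cholesterol and desaturase biology 2 rose and 3 fell (median -0.26), so the shares called were near those of all genes. In the eicosanoid list 3 of 17 rose and 2 fell, in different branches. The 3 that rose form the route to prostaglandin E2: Pla2g4a, which frees arachidonate, at 1548, 6706 and 7723 (2.05 ± 0.22, adjusted p = 0.00182); Ptgs2 (COX-2) at 155, 8925 and 7578, at least 27.2-fold higher (4.39 ± 0.19, adjusted p = 2.8e-05); and Ptges at 1165, 29516 and 33247 (4.48 ± 0.19, adjusted p = 2.8e-05). Those that fell belong to leukotriene synthesis. Lta4h read 13827, 7705 and 6537 (-0.94 ± 0.15, adjusted p = 0.00881; 0.0747 without the intensity trend), and Ltc4s read 34426, 14622 and 17923 (-1.08 ± 0.20, adjusted p = 0.0169; 0.0659 without pool 1, 0.0571 with median-centred arrays and 0.0917 without the intensity trend). Alox15, among the brightest genes of naive macrophages, was not called (80248, 70285 and 79220, adjusted p = 0.745).

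Arginine and nitric oxide genes rose in 6 of 14 cases and fell in 1 (median 0.47), with 4 rises and no fall without either pool. Slc7a2, the inducible arginine transporter, read 1114, 21387 and 29132 (4.21 ± 0.20, adjusted p = 4.27e-05). Gch1, the first enzyme in making the cofactor of nitric oxide synthase, read 2000, 12542 and 17159 (2.73 ± 0.23, adjusted p = 0.000629). Nos2, the inducible nitric oxide synthase, was dim at 212, 1176 and 1695, at least 4.68-fold higher (1.85 ± 0.39, adjusted p = 0.0241), and its call was lost without pool 1 (adjusted p = 0.0633) or pool 2 (adjusted p = 0.136). Of the arginases, mitochondrial Arg2 read 150, 5821 and 4424, at least 16.8-fold higher (3.74 ± 0.25, adjusted p = 0.000219), with 0.57 in its other probe set, and cytosolic Arg1 was not called (2022, 754 and 880, adjusted p = 0.0788). In the polyamine branch Srm (spermidine synthase) rose by 1.40 ± 0.21 (adjusted p = 0.00682), and Odc1 was not called (0.70 ± 0.26, adjusted p = 0.15).

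Redox and metal genes contained a few strong responders. Of 30 pentose phosphate, antioxidant and thioredoxin genes 4 rose and 3 fell (median -0.13, -0.05 with median-centred arrays). Over all genes 6.36% were called higher and 9.96% lower, so the falls were near the share of all genes. Sod2, the mitochondrial superoxide dismutase, read 2123, 25905 and 29966 (3.57 ± 0.14, adjusted p = 2.31e-05), and Txnrd1, thioredoxin reductase, read 2773, 20717 and 20834 (2.80 ± 0.13, adjusted p = 4.65e-05). Txnip, the thioredoxin inhibitor that also limits glucose uptake, read 21426, 8961 and 9267 (-1.21 ± 0.13, adjusted p = 0.00179), with 0.29 in another probe set. Of 13 iron genes 5 rose and 1 fell (median 0.07), with 4 and none without pool 1 and 3 and none without pool 2. Lcn2, which traps bacterial iron carriers, read 277, 12442 and 10560, at least 38-fold higher (4.47 ± 0.24, adjusted p = 8.26e-05), and is itself 1 of the 13 neutrophil markers, of which 6 rose and 1 fell. Its other probe set gave 0.37 (adjusted p = 0.595). Cp (ceruloplasmin), a ferroxidase, read 1352, 8241 and 8578 (2.43 ± 0.15, adjusted p = 0.000137). The copper importer Slc31a1 read 3591, 10769 and 11549 (1.57 ± 0.23, adjusted p = 0.00606), while the phagosomal metal pump Slc11a1 was not called (0.06 ± 0.13, adjusted p = 0.858).

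Protein synthesis genes separated by step. None of 32 cytosolic ribosomal protein genes was called by limma (median -0.03, 0.05 with median-centred arrays), with 3 lower and 0 higher at an unadjusted p under 0.05. Of 19 nucleolar and ribosome assembly genes 9 rose and none fell, also at an unadjusted p under 0.05 (median 0.68), and the rises numbered 3 without pool 1. Rcl1, a factor of small subunit assembly, read 2142, 10314 and 10674 (2.17 ± 0.15, adjusted p = 0.000217), and Nop58, a core protein of box C/D snoRNPs, read 1878, 7943 and 7139 (1.87 ± 0.16, adjusted p = 0.000636). Rrs1, an assembly factor of the large subunit, read 2021, 5157 and 5649 (1.31 ± 0.19, adjusted p = 0.00544). The abundant nucleolar protein Npm1 was not called (-0.04 ± 0.15, adjusted p = 0.933). Of 43 translation factors and tRNA synthetases 3 rose and 3 fell, near the shares over all genes (6.36% called higher and 9.96% lower). Eif1a, an initiation factor, read 5305, 15566 and 17081 (1.58 ± 0.15, adjusted p = 0.000952), and Rars, which charges tRNA with arginine, read 3985, 12107 and 9791 (1.40 ± 0.17, adjusted p = 0.00289).

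Among protein breakdown genes the rises lay mostly in the interferon-inducible ones. Of 32 constitutive proteasome genes 1 rose and none fell (median 0.13). At an unadjusted p under 0.05, 8 were higher and 0 lower, no larger a share than the 2493 of all 8251 genes in either direction. Of 12 immunoproteasome and peptide supply genes 5 rose and none fell (median 0.40; 6 and 0 at an unadjusted p under 0.05), with 2 rises without pool 2. Tap1, which carries peptides into the endoplasmic reticulum for MHC class I, read 7574, 30221 and 33311 (2.03 ± 0.13, adjusted p = 0.000169). The inducible subunit gene Psmb10 read 14200, 31692 and 36596 (1.25 ± 0.14, adjusted p = 0.00206). Of 44 ubiquitin genes 4 rose and 5 fell (median -0.26), and the largest rises were in the ISG15 system. Usp18, which removes ISG15 from proteins and blocks the interferon receptor, read 660, 50658 and 64772 (5.98 ± 0.19, adjusted p = 1.07e-05), and Ube2l6, the conjugating enzyme for ISG15, read 512, 2641 and 3593 (2.13 ± 0.28, adjusted p = 0.00425). Of 50 lysosomal genes 1 rose and 5 fell (median -0.13); the falls numbered 2 with median-centred arrays (median -0.04) and 10 with quantile normalization (median -0.24), where 8.98% of all genes were called lower. The acid sphingomyelinase gene Smpd1 read 9568, 2940 and 2794 (-1.66 ± 0.18, adjusted p = 0.00166). Of 37 splicing genes 2 rose and 4 fell, led by Clk1, a kinase of splicing factors, at 24298, 7674 and 6691 (-1.73 ± 0.19, adjusted p = 0.00171). Over all genes 6.36% were called higher and 9.96% lower, so the falls among ubiquitin, lysosomal and splicing genes were near the share of all genes. The falls numbered 2 without pool 1 and none without pool 2 among ubiquitin genes, 2 and 3 among lysosomal genes, and 1 and 1 among splicing genes.

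**Figure D3:**
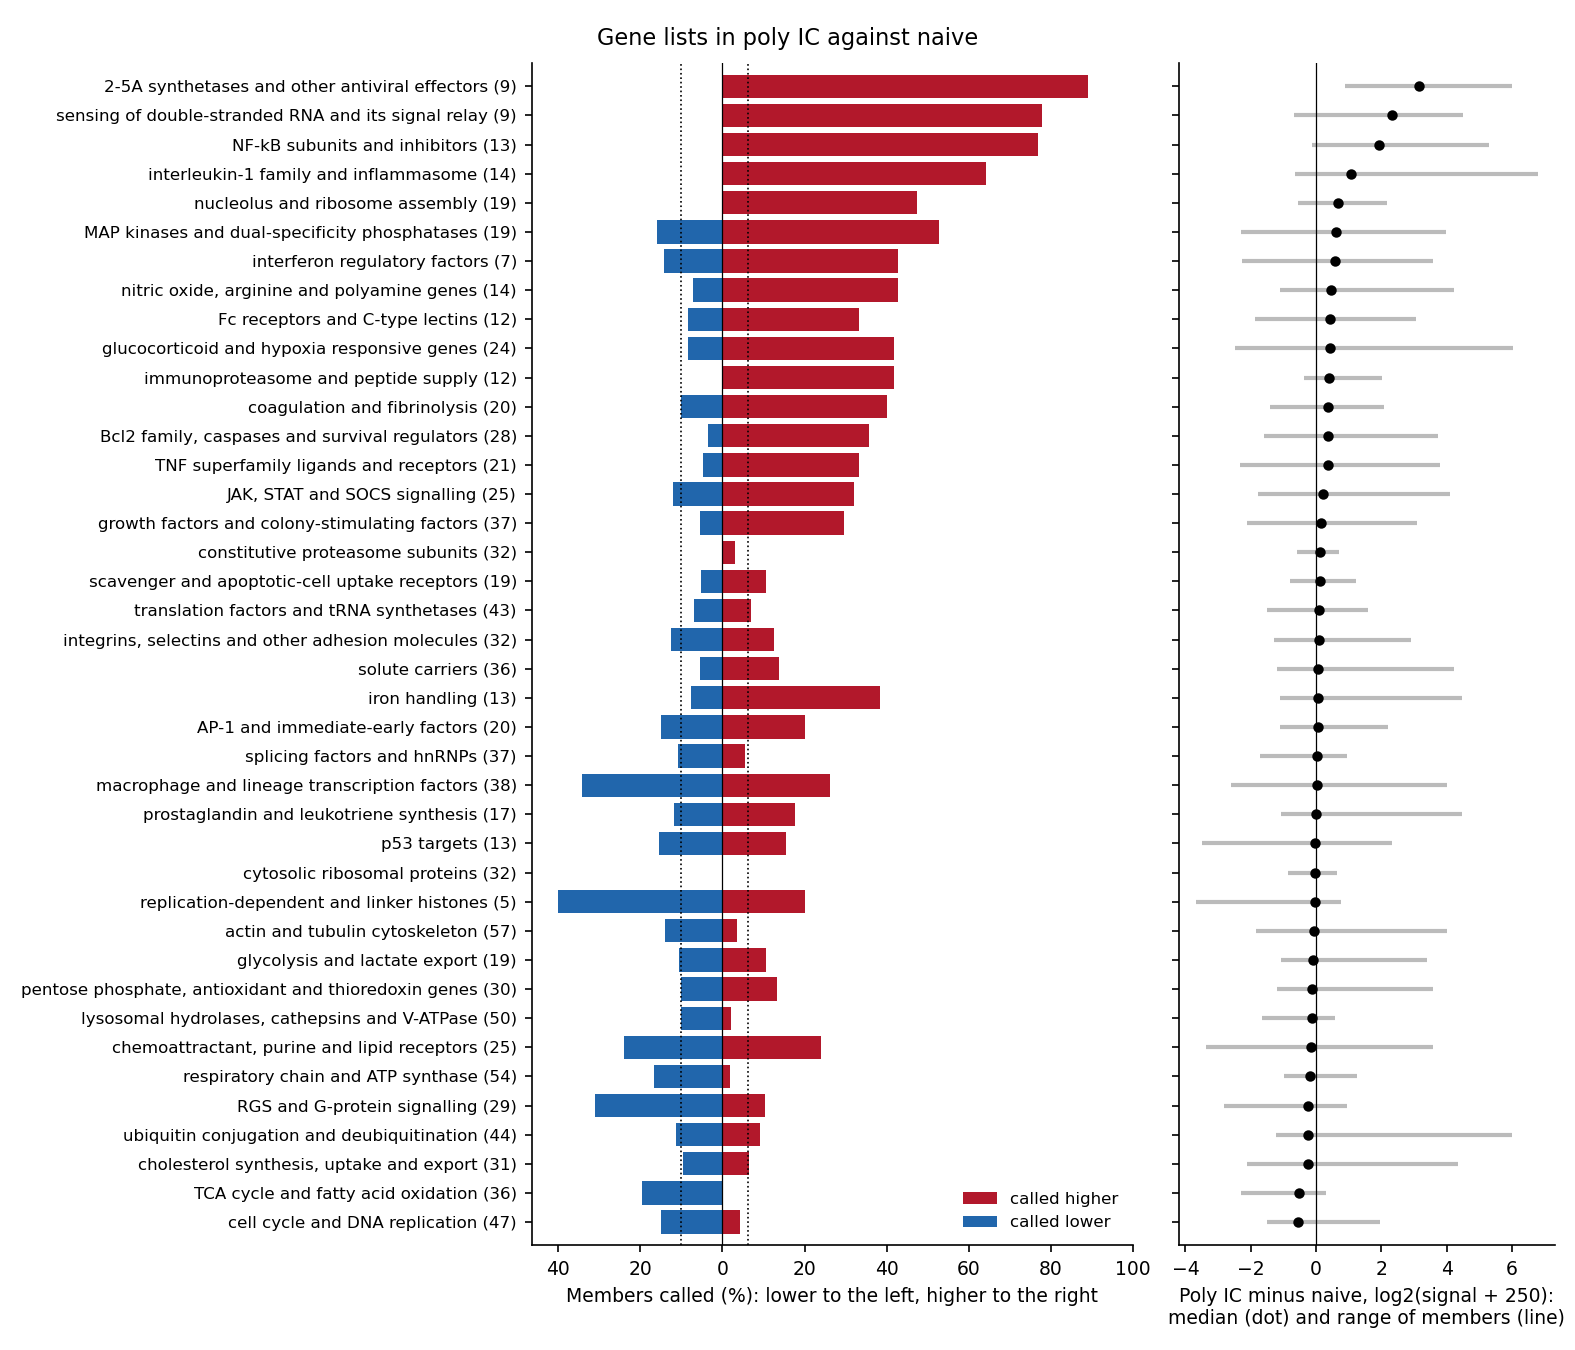
Share of members called lower (blue, to the left) and higher (red, to the right) in each of 40 gene lists, with the number of members on the array in brackets and dotted lines at the shares over all genes (9.96% and 6.36%), and, on the right, the median and the range of the members' differences in log2(signal + 250). Antiviral effectors, RNA sensing and NF-kB head the order, and the citrate cycle and cell cycle lists lie at its foot.

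Receptors for attractants divided into 6 that rose and 6 that fell among 25 (median -0.17, -0.08 with median-centred arrays); without pool 1 the numbers were 5 and 1, and without pool 2 they were 3 and 2. Fpr2, a receptor for formyl peptides and serum amyloid A, read 1769, 23372 and 24524 (3.58 ± 0.15, adjusted p = 2.8e-05), and the complement receptor C5ar1 read 5365, 22627 and 26996 (2.15 ± 0.15, adjusted p = 0.000243). Ptafr, the receptor of platelet-activating factor, rose by 1.40 ± 0.19 (adjusted p = 0.00482). In the opposite direction, Ccr2, a receptor of monocytes for CCL2-type chemokines, was among the 15 largest falls at 17139, 2061 and 970 (-3.37 ± 0.41, adjusted p = 0.00286). It is also 1 of 4 monocyte markers on the array, of which 1 rose and 1 fell and whose summed signal was 109247, 114433 and 105637. The lymph node homing receptor Ccr7 read 3646, 892 and 971 (-1.72 ± 0.31, adjusted p = 0.0132; 0.0677 without pool 1 and 0.0646 without pool 2). Fpr2 and C5ar1 are also found on neutrophils and Ccr7 on lymphocytes. Of 12 Fc receptor and C-type lectin genes 4 rose and 1 fell (median 0.43). Fcgr1, the high-affinity IgG receptor, read 3323, 26225 and 33345 (3.06 ± 0.21, adjusted p = 0.000238), and Clec4e (Mincle), a receptor for mycobacterial glycolipid, read 905, 8660 and 9459 (3.01 ± 0.16, adjusted p = 6.69e-05). Its neighbour in function Clec4d read 15097, 42481 and 56037 (1.68 ± 0.19, adjusted p = 0.00225), and the inhibitory Fcgr2b rose by 1.15 ± 0.13 (adjusted p = 0.00232). Cd72, a B cell coreceptor, read 2861, 570 and 647 (-1.86 ± 0.31, adjusted p = 0.01) alongside the B cell markers.

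Adhesion genes rose in 4 and fell in 4 of 32 cases (median 0.08), so 25% were called, against 16.3% of all genes. Icam1, the ligand of leukocyte integrins, read 1906, 16455 and 15099 (2.89 ± 0.15, adjusted p = 6.76e-05). The hyaluronan receptor Cd44 read 3340, 19177 and 19483 (2.45 ± 0.15, adjusted p = 0.000147), with 0.03 and 0.55 in its other probe sets. Selp (P-selectin) read 23315, 63457 and 69204 (1.5 ± 0.15, adjusted p = 0.0015), and Cd48, a ligand of CD2 family receptors, read 21834, 8757 and 8930 (-1.28 ± 0.13, adjusted p = 0.00149). In the coagulation list 8 of 20 rose and 2 fell (median 0.38), with 5 and none without either pool. F10, the gene of coagulation factor X, read 8930, 29647 and 31310 (1.74 ± 0.14, adjusted p = 0.000443). The plasminogen activator Plat read 323, 2249 and 2070 (2.07 ± 0.30, adjusted p = 0.00583), and its inhibitor Serpinb2 rose by 1.35 ± 0.14 (adjusted p = 0.00172) from 40107 to 103587 and 101162. F3 (tissue factor) read 222, 1498 and 1071, at least 4.2-fold higher (1.69 ± 0.38, adjusted p = 0.0321; 0.16 without pool 1 and 0.0886 without pool 2).

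Growth factors and their receptors rose in 11 and fell in 2 of 37 cases (median 0.14), with 7 and 2 without pool 1 and 8 and 1 without pool 2. Both ligand and receptor of the IL-15 system rose: Il15, which sustains NK and memory T cells, read 343, 4584 and 5092 (3.10 ± 0.27, adjusted p = 0.000694), and Il15ra, which presents it, read 2903, 15938 and 18872 (2.48 ± 0.18, adjusted p = 0.000272). Csf1, the main survival factor of macrophages, read 1309, 10190 and 9100 (2.66 ± 0.15, adjusted p = 9.82e-05), and Csf3 rose by 2.29 ± 0.19 (adjusted p = 0.000596). The receptor chain for IL-4 and IL-13, Il4ra, read 4104, 25403 and 23373 (2.50 ± 0.14, adjusted p = 0.000115), with 1.05 in its other probe set. Tgfb2, a TGF-beta isoform, read 7853, 1774 and 1505 (-2.10 ± 0.23, adjusted p = 0.00179). Il10, an anti-inflammatory cytokine, read 33, 1984 and 2096, at least 6.75-fold higher (3.02 ± 0.31, adjusted p = 0.00143). The TNF superfamily had 7 rises and 1 fall among 21 genes (median 0.37). Tnfsf9 (4-1BB ligand), a costimulator of T cells, read 172, 5921 and 5356, at least 18.7-fold higher (3.80 ± 0.15, adjusted p = 2.31e-05), Tnf read 467, 6489 and 6261 (3.21 ± 0.19, adjusted p = 0.000139), and Cd40 rose by 1.99 ± 0.17 (adjusted p = 0.000564). The fall was in Ltb (lymphotoxin beta), a product mainly of lymphocytes, at 33167, 5976 and 6904 (-2.32 ± 0.15, adjusted p = 0.000185). In the IL-1 family 9 of 14 rose and none fell (median 1.06; 1 lower at an unadjusted p under 0.05), agonists and inhibitors alike. Il1a read 656, 44088 and 38056 (5.51 ± 0.14, adjusted p = 4.55e-06), the receptor antagonist Il1rn read 469, 75346 and 82394 (6.78 ± 0.15, adjusted p = 1.97e-06), and the decoy receptor Il1r2 read 397, 6266 and 3844 (3.00 ± 0.32, adjusted p = 0.00162).

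Genes of G-protein signalling fell more often than they rose, as did all genes (9.96% called lower and 6.36% higher). The share called in either direction was 41.4%, against 16.3% of all genes. Of 29, 3 rose and 9 fell (median -0.25), with 1 and 7 without pool 1 and 0 and 6 without pool 2. Rgs2, which turns off Gq signalling, read 14235, 1720 and 1860 (-2.83 ± 0.21, adjusted p = 0.000321). Adcy7, an adenylyl cyclase of blood cells, read 19812, 3624 and 3369 (-2.42 ± 0.14, adjusted p = 0.000125). Grk6, a kinase that desensitises receptors, read 20204, 7197 and 5530 (-1.64 ± 0.18, adjusted p = 0.00169), and Rgs19 read 9096, 2834 and 2114 (-1.79 ± 0.23, adjusted p = 0.0039). In each of these probe sets both pools were well below naive, and the other probe sets of Rgs19 gave -1.56 (adjusted p = 0.00573) and 0.47 (adjusted p = 0.525). Of 57 cytoskeleton genes 2 rose and 8 fell (median -0.07, 0.01 with median-centred arrays), with 5 falls without pool 1, 3 without pool 2 and 15 with quantile normalization. The share of cytoskeleton genes called was 17.5%, near the 16.3% of all genes. The rises were the actin-binding kinase substrates Marcksl1, at 3185, 52745 and 58045 (4.02 ± 0.17, adjusted p = 2.8e-05), and Marcks, at 3160, 27080 and 27074 (3.00 ± 0.19, adjusted p = 0.000157). Coro1c, a coronin, read 12558, 4562 and 4556 (-1.41 ± 0.15, adjusted p = 0.00149).

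Hormone and oxygen responsive genes rose in 10 and fell in 2 of 24 cases (median 0.42). Besides the metallothioneins, Adm (adrenomedullin), a hypoxia-induced vasodilator peptide, read 1266, 8126 and 7035 (2.37 ± 0.15, adjusted p = 0.000157), and the glucocorticoid receptor gene Nr3c1 rose by 1.25 ± 0.17 (adjusted p = 0.00507). Egln1 (PHD2), the enzyme that marks HIF-1 alpha for destruction, read 3288, 368 and 413 (-2.47 ± 0.30, adjusted p = 0.00306). Of 36 solute carriers 5 rose and 2 fell (median 0.07), so 19.4% were called, against 16.3% of all genes. Slc7a5, a carrier of large neutral amino acids, read 1806, 4984 and 4876 (1.33 ± 0.17, adjusted p = 0.00351), and Slc25a4, the ADP/ATP carrier of mitochondria, read 12454, 5670 and 4907 (-1.20 ± 0.16, adjusted p = 0.00448).

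Cell cycle genes lay below naive as a list, with a median of -0.54, and few were called: 2 of 47 rose and 7 fell. The share called was 19.1%, against 16.3% of all genes. The falls numbered 1 without pool 1, none without pool 2 and 1 with median-centred arrays. The rises did not depend on a pool. Ccnd2 (cyclin D2) read 1805, 7196 and 8163 (1.95 ± 0.20, adjusted p = 0.00149), and the proliferation marker Mki67 read 949, 4994 and 3477 (1.88 ± 0.31, adjusted p = 0.00928), with 0.52 in its other probe set.

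The poly IC pools differed from each other by at least 2-fold in 295 genes, and some of these mark other cells. Mast cell proteases separated the pools: Cma1 (chymase) read 10450 in naive, 17658 in pool 1 and 4237 in pool 2, and Cpa3 read 4270, 6182 and 1584. Naive lay between the pools in both, and neither was called (-0.26 ± 0.69 and -0.40 ± 0.64, adjusted p = 0.885 and 0.779). Without pool 1 both were called lower (adjusted p = 0.0215 and 0.0409), and without pool 2 neither was called, with differences of 0.74 and 0.51. The sum of 10 mast cell markers was 23752, 63998 and 37761. Hdc, the histidine decarboxylase that makes histamine, accounted for most of that rise, at 2416, 28453 and 25488 (3.35 ± 0.15, adjusted p = 2.88e-05), which did not follow the proteases between the pools. Globin genes went the other way between the pools, with Hba-a1 at 668, 14514 and 26049 (4.42 ± 0.44, adjusted p = 0.00123). Gzmb, a granzyme of NK and cytotoxic T cells, read 189, 5284 and 3032, at least 13.3-fold higher (3.28 ± 0.38, adjusted p = 0.00236). None of the remaining 6 NK cell markers was called (1 higher and 1 lower at an unadjusted p under 0.05). Gzma (granzyme A) read 462, 1517 and 1414 (1.27 ± 0.35, adjusted p = 0.0611), while Prf1 (perforin) read 335, 118 and 120 and Klrd1 1386, 510 and 492. Without the intensity trend 2 of the 7 NK cell markers were called higher and 1 lower. Neutrophil markers were uneven as well. S100a8 read 564, 56818 and 40341 (5.89 ± 0.21, adjusted p = 1.39e-05), while Ngp read 82, 2730 and 265 and Ltf 143, 1636 and 546, and neither Ngp nor Ltf was called (adjusted p = 0.265 and 0.125). The granule protease gene Prtn3 fell, at 11430, 3916 and 3579 (-1.55 ± 0.20, adjusted p = 0.00386).

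**Figure D4:**
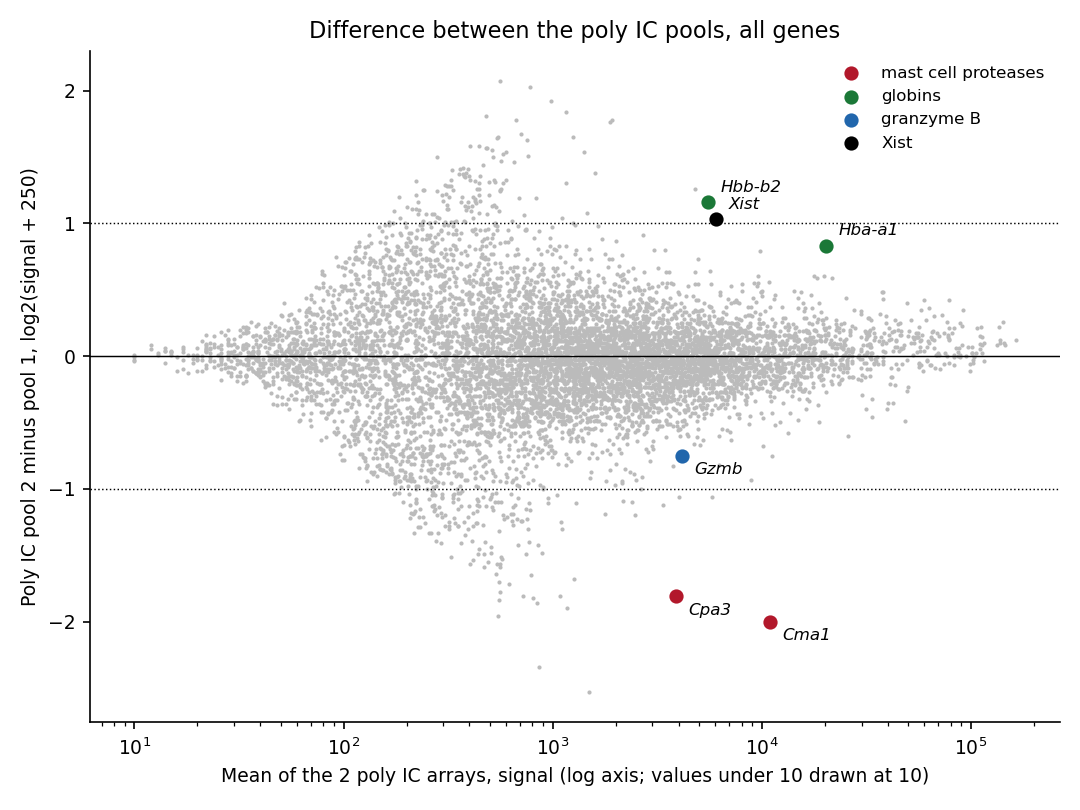
Difference between the poly IC pools, pool 2 minus pool 1 in log2(signal + 250) (y axis), against the mean poly IC signal on a log axis (x axis), with 1 grey point for each of 8251 genes and dotted lines at a 2-fold difference. The mast cell proteases Cma1 and Cpa3 lie far below the cloud of genes of like brightness, and the globins and Xist lie above it.

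Several of the largest changes fell outside the gene lists and were picked out after their values were seen. Tnfaip2, a TNF-induced gene of myeloid and endothelial cells, read 2227, 41771 and 43026 (4.11 ± 0.13, adjusted p = 1.17e-05). Olr1, the receptor for oxidised LDL, read 81, 5709 and 5089, at least 17.9-fold higher (4.09 ± 0.24, adjusted p = 0.000121), and Edn1 (endothelin 1) read 244, 5310 and 5374, at least 17.7-fold higher (3.50 ± 0.19, adjusted p = 7.63e-05). Sphk1, which makes sphingosine 1-phosphate, rose from 25 to 2978 and 3669, at least 10.9-fold (3.69 ± 0.26, adjusted p = 0.000269). Olr1, Edn1 and Sphk1 were below the brightest control in naive and well above it in both pools. Nampt, the rate-limiting enzyme of NAD salvage, read 2282, 24684 and 27969 (3.39 ± 0.16, adjusted p = 4.99e-05), and Tiparp, an ADP-ribosyltransferase, read 4204, 43178 and 48303 (3.37 ± 0.17, adjusted p = 6.45e-05). Timp1, an inhibitor of matrix proteases, read 1769, 15368 and 17390 (3.04 ± 0.25, adjusted p = 0.000553), with 0.13 in its other probe set. The 15 largest falls, which include the B cell markers Cd79b, Fcer2a and Spib, also held genes outside the lists. Rab11fip5, an effector of endosome recycling, read 7758, 721 and 825 (-2.97 ± 0.32, adjusted p = 0.00171), and Il16, a lymphocyte chemoattractant, read 5752, 484 and 704 (-2.84 ± 0.33, adjusted p = 0.00255). Fmnl1, a formin of blood cells, read 2229, 103 and 93, at least 6.18-fold lower (-2.83 ± 0.39, adjusted p = 0.00494). The bright genes Mef2d and Arhgap45 (35752, 5520 and 6761; 23322, 3855 and 3539) fell, with differences of -2.50 ± 0.17 and -2.58 ± 0.15 on the log2 scale (adjusted p = 0.000231 and 0.000123).

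Different probe sets of a gene gave a check within the arrays. Called genes had 484 other probe sets, of which 76% had the same sign and 128 were called in the same direction; among the 368 not below the brightest control in all 3 samples, 86.7% had the same sign. For several called genes described above another probe set was not called. Among those that rose these gave 0.05 for Atf3, 0.04 for Birc2, 0.52 for Ifnar2, 0.45 for Jak2, 1.53 for Nfkbiz, -0.06 for Ptafr and 0.94 for Tap1 (adjusted p between 0.0607 and 0.98). Among those that fell they gave -1.01 for Fmnl1, 0.02 for Ltc4s, -0.90 and -0.18 for Map3k1, 0.19 for Scd1, -0.20 for Smpd1 and -2.09 for Mef2c (adjusted p between 0.0676 and 0.962). Probe sets with no gene symbol numbered 1193, of which 33 were called higher and 58 lower, and are not named here.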

How the data were processed

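RNA from 5 samples of mouse peritoneal macrophages had been hybridised to Affymetrix MG-U74Av2 arrays, 1 array per sample. The deposited values are intensities, 1 linear signal per probe set and array, which per the labels' protocols came from Microarray Suite 5.0 with global scaling to a target of 2500; Data Mining Tool 3.0 is also named there. Global scaling hides any broad change in RNA content. Detection calls were not used here. Samples were grouped by title.

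Of 12488 probe sets, 66 controls were left out. Gene names came from the platform annotation; RefSeq, matched on Entrez ID, updated the symbols of 10817 of the 10833 probe sets that have 1 symbol. A gene was represented by its probe set of 1 symbol with the highest mean signal over the 3 arrays compared. Signals were analysed as log2(signal + 250). The means of the 3 groups were estimated by lmFit and tested, two-sided, by trended eBayes (limma 3.58.1, R 4.3.3), with 2 residual and 4.69 prior degrees of freedom. P-values were adjusted by Benjamini-Hochberg over all 12422 probe sets and called under 0.05. The procedure was checked on simulated data. These gave the naive array the spread of the treated pools, so the check cannot show how much naive samples vary. The labels do not say whether pools came from separate experiments, so p-values measure the spread between these samples. The number of arrays limits the precision. The highest signal among 19 unspiked controls was 301.9 in naive and 375.7 and 346.8 in the pools. A gene dimmer than this in every sample of 1 group has a fold of "at least" the brighter group's mean over that control. Promoters were read from a RefSeq table of GRCm38.p6. The response element and NF-kB motifs were shortened to 9-letter cores after counts for the longer forms had been seen. Plots used Python 3.11.15 and matplotlib 3.10.9.

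The comparison, its 40 gene lists and 12 marker lists, and the naming rule were chosen with earlier results of these data known. The rule names the 15 largest rises and 15 largest falls among called genes that lie on the same side of naive in both pools, for each list the 4 members that moved most in either direction, and members called against the direction of most called members. A part of the genes it selects is printed, picked after the values were seen. Genes printed outside the rule were also chosen then: Adar, Adgre1, Adm, Alox15, Apaf1, Arg1, Arhgap45, Birc2, Birc3, Ccl3, Cd40, Cd68, Cebpa, Cma1, Crem, Csf3, Cxcl9, Edn1, Egr1, Eif2s3y, Fcgr2b, Gja1, Ifi202b, Ifnar1, Ifnar2, Il10, Il6, Irf3, Irf8, Junb, Kdm5d, Ldha, Ltf, Mapkapk2, Mef2c, Mef2d, Myd88, Nampt, Nfil3, Nfkb2, Ngp, Npm1, Nr3c1, Odc1, Olr1, Pdha1, Ptafr, Rel, Serpinb2, Slc11a1, Slfn1, Slfn2, Slfn4, Sphk1, Spi1, Srm, Stat3, Stat5a, Tbk1, Timp1, Tiparp, Tnfaip2, Tnip1, Upp1, Uty and Xist. Alternatives were the spread from the 3 arrays alone, offsets of 50 and 1000, a filter at the 40th percentile of mean signal, median-centred and quantile-normalized arrays, eBayes without the trend, and leaving out each array of a treated pool.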

Additional observations from a re-analysis of the deposited data

How the results depend on the processing

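The number of probe sets called was 1682 and lay between 1357 and 2198 with the 3 contrast arrays alone, other offsets, the filter, median-centring and quantile normalization. It was 926 without the intensity trend, and ranged from 836 to 1691 when 1 treated array was left out: without poly IC pool 2 it was 836 and without pool 1 it was 969. The lone poly IC array was then assumed to vary like the other pools. No call was reversed under any of these settings. All of them kept the same naive array, and leaving out a poly IC pool could not reverse a call. The share of calls that were lower went from 60.4% to 52.5% with median-centred arrays. Of the 220 called genes that the naming rule selects, 160 kept their call without the trend, 172 without pool 1, 165 without pool 2 and 197 to 219 under the other settings. Of 52 list medians, 33 were above 0, and 30 to 39 were under the alternatives; 6 changed sign with median-centring, 6 with quantile normalization, 3 without pool 1, 6 without pool 2, 5 with the mean over all probe sets of a gene and 0 with dim members at their bounds. No paired analysis was possible because the naive control carries no replicate number. Only 1 naive array was measured, so what is particular to that sample and what poly IC did cannot be told apart. Dim signals limit the calls: 1520 genes were below the brightest unspiked control in all 3 samples.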

Other observations

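Interferon-inducible families that stood in no gene list were looked up after their values had been seen. The Schlafen genes, which restrain growth of immune cells and of viruses, were all above the brightest unspiked control in naive macrophages. Slfn2 read 25991 in naive and 111205 and 119393 in the pools (2.14 ± 0.14, adjusted p = 0.000172), Slfn4 read 23447, 87233 and 86999 (1.88 ± 0.17, adjusted p = 0.000724), and Slfn1 read 2995, 12176 and 11549 (1.90 ± 0.18, adjusted p = 0.00109). In all 3 genes the pools lay close together and well above naive. Ifi202b, of the p200 family of DNA-binding interferon-induced proteins, read 1418, 24796 and 29052 (4.02 ± 0.17, adjusted p = 2.75e-05). Repressors of the bZIP class rose too: Nfil3 read 1043, 10746 and 9394 (2.99 ± 0.19, adjusted p = 0.000147), and Crem read 631, 5646 and 5162 (2.68 ± 0.19, adjusted p = 0.000231). Upp1, which splits uridine, read 104, 3921 and 5461, at least 15.3-fold higher (3.79 ± 0.29, adjusted p = 0.000389), with 0.34 in its other probe set. The gap junction gene Gja1 (connexin 43) read 321, 5728 and 5885 (3.41 ± 0.23, adjusted p = 0.000214).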
